A study of Rattus norvegicus with 12 samples.

Results

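Fatty acid uptake and oxidation genes were followed in 12 rat hearts on Illumina bead arrays, on which each probe reports the transcript it is complementary to. The set held 34 genes, chosen by symbol from the platform annotation, of which 33 had a probe. Each of these 33 genes was represented by 1 tested probe among the 10234 tested probes of the array, and all 33 probes were above background on 12 of 12 arrays, so that none was kept through 1 group alone. Ehhadh, the peroxisomal bifunctional enzyme, had no probe under its symbol and is not analysed here. Crat, carnitine acetyltransferase, had a second probe that was above background on 0 arrays and was not used.

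The labels place 4 hearts under phasic systolic overload (SO), 4 under phasic diastolic overload (DO), and 4 without loading in any phase of the cycle (control, CN). All 12 hearts came from Sprague-Dawley rats, an outbred stock, and no transgene or drug is named for any group. The tissue is labelled as heart and the series title speaks of the left ventricle. The length of loading, the age and sex of the rats and the slide of each array are not given in the sources used here. The labels do not say whether the hearts of a group are different animals. The p-values therefore reflect variation among the deposited arrays only, some of which may be technical.

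The adult heart draws most of its energy from long-chain fatty acids. Lipoprotein lipase frees them from circulating triglycerides at the vessel wall, Cd36 takes them up, Fabp3 carries them through the cytosol and acyl-CoA synthetases activate them. The carnitine shuttle moves the activated chains into the mitochondrion, where repeated rounds of dehydrogenation, hydration, a second dehydrogenation and thiolysis shorten them to acetyl-CoA, and electron transfer flavoprotein hands the electrons to the respiratory chain. Lower expression of this machinery is known from hearts under prolonged pressure overload.

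Between 9249 and 9931 probes were above background per array, and the median raw intensity of an array was between 86.3 and 115.5, CN 4 being brightest. Normalized arrays correlated at 0.984 to 0.992. All values below are normalized log2 intensities unless stated otherwise. A probe's brightness depends on its sequence, so levels are compared between hearts and not between genes. The tissue label was checked against cardiomyocyte markers, of which 9 of the 9 with a probe were tested and detected. In whole tissue, fewer cells of a type and less RNA per cell cannot be told apart.

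Expression of the fatty acid genes differed little between the 3 groups. With limma, 0 of the 33 genes passed at an adjusted p of 0.05 in each of the 3 comparisons, and the background was 0% of all 10234 tested probes in each. At an unadjusted p of 0.05, 0 of 33 were reached in SO against CN (5.79% of all probes), 0 of 33 in DO against CN (5.49%) and 1 of 33 in SO against DO (6.32%). With median scaling of the arrays these counts were 1, 11 and 1 of 33, beside 1198, 1369 and 333 of all 10234 probes. With the deposited normalized table they were 1, 2 and 3 of 33, beside 578, 513 and 612 of all 10234 probes. After quantile normalization, the 95% interval of each single gene limited the size of its difference between these arrays. The intervals were taken gene by gene and not jointly. In each comparison 33 of 33 genes had a 95% interval that ended short of a 1.5-fold change both ways, against 83.7%, 83.8% and 83.4% of all probes in SO against CN, DO against CN and SO against DO. The widest bounds were 1.48-fold for Etfb in SO against CN, 1.4-fold for Acsl4 in DO against CN and 1.47-fold for Acadsb in SO against DO. Under the same median scaling, 30 of 33 intervals in SO against CN and 22 of 33 in DO against CN lay within 1.5-fold.

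**Figure D1:**
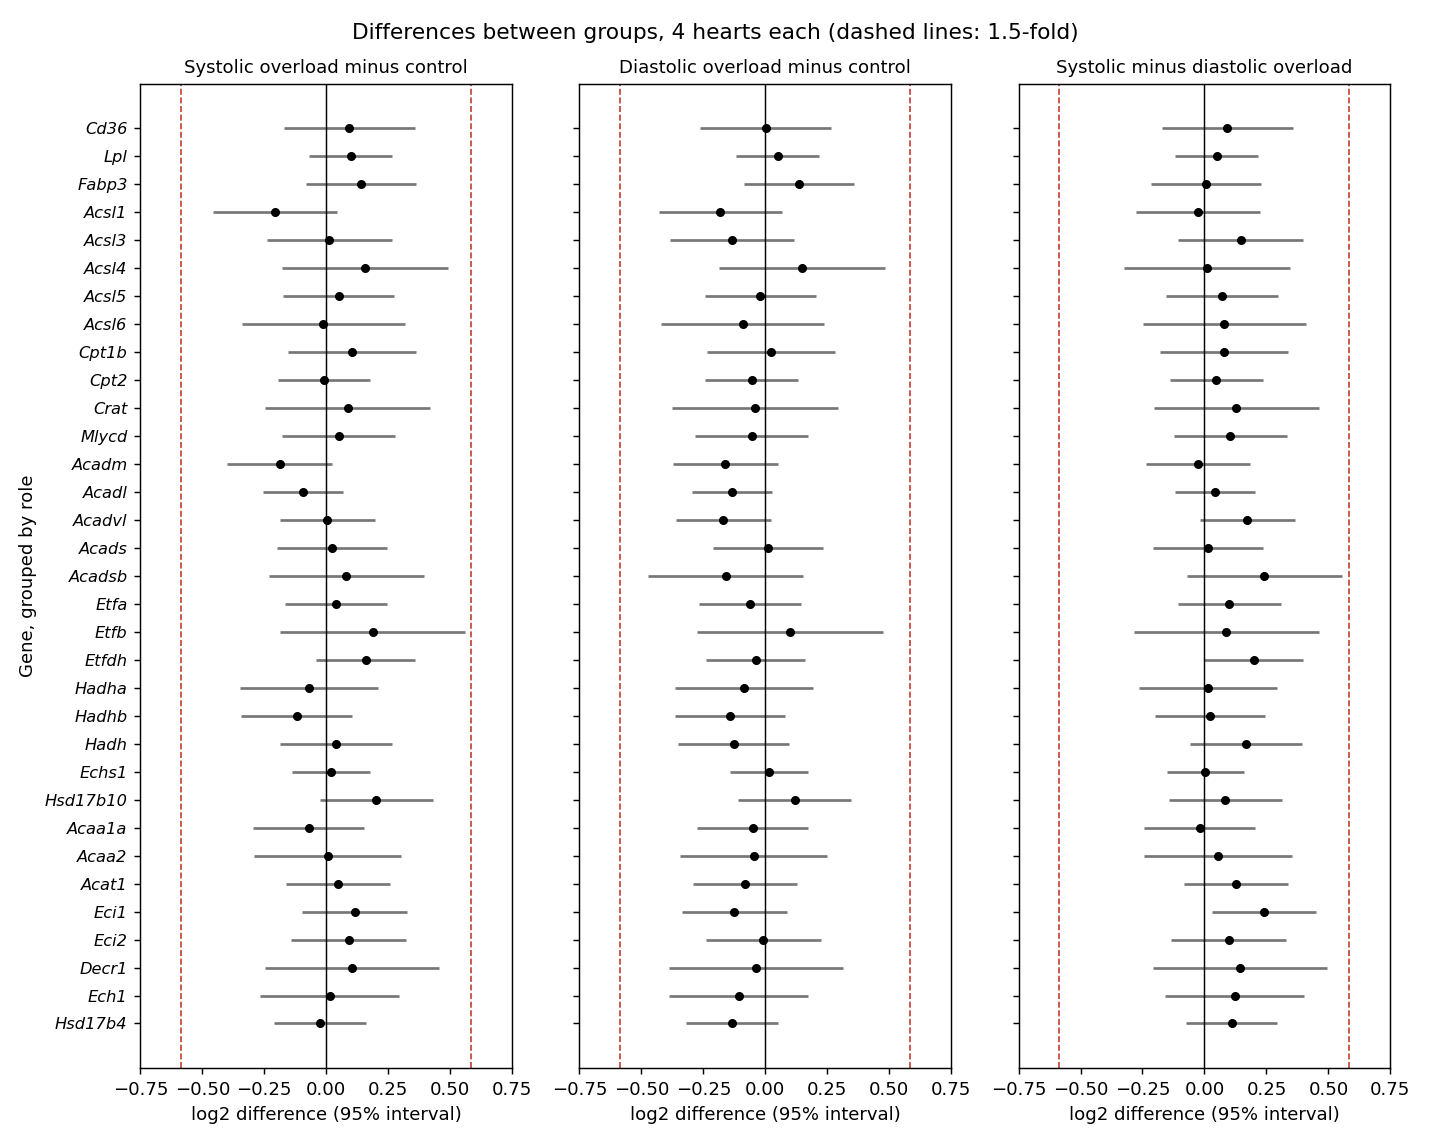
Log2 difference (points) with its 95% interval from limma (lines) for 33 fatty acid genes, grouped by role, in systolic overload minus control, diastolic overload minus control and systolic minus diastolic overload, 4 hearts per group. Every interval ends inside the dashed lines at 1.5-fold, and of the 3 panels only the last has an interval that clears 0 by more than rounding, that of Eci1.

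Spread between hearts of 1 group was small as well. The pooled standard deviation within groups had a median of 0.136 over the 33 genes, against 0.187 over all tested probes, and it ran from 0.052 for Echs1 to 0.269 for Etfb. Here and for the interval shares above, all tested probes include dim ones detected on only some arrays, whereas the 33 were detected on 12. Over all 12 hearts, 24 of 33 genes ranged by less than 1.5-fold. The narrowest range was that of Echs1, the short-chain enoyl-CoA hydratase, at 1.13-fold, and the widest that of Etfb, the beta subunit of electron transfer flavoprotein, at 1.77-fold. The Etfb probe was dim, with raw intensities of 149 to 244 beside array medians of 86.3 to 115.5, so its spread may partly reflect background. For 6 genes (Lpl, Fabp3, Acadm, Acadl, Hadhb and Ech1) the mean lay within 1 log2 unit of the brightest probe of the array. There bead signals can be compressed, and differences understated or distorted.

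Among genes of uptake and intracellular transport, Cd36, the fatty acid translocase, stood at 13.14, 13.08, 13.41 and 13.26 in SO hearts, at 12.99, 13.20, 12.97 and 13.37 in DO hearts, and between 12.96 and 13.36 in control hearts, with a mean of 13.13. The groups overlapped, and each held both high and low hearts. Lpl, lipoprotein lipase, stood at 14.99, 14.93, 14.83 and 14.96 in SO hearts, at 14.91, 14.90, 14.92 and 14.79 in DO hearts, and at 14.90, 14.76, 14.90 and 14.76 in control hearts. Of the 4 SO hearts, 3 lay above all controls in Lpl. Fabp3, the heart-type fatty acid binding protein, stood at 14.67, 14.71, 14.67 and 14.61 in SO hearts, at 14.66, 14.68, 14.63 and 14.65 in DO hearts, and at 14.71, 14.36, 14.72 and 14.30 in control hearts. Its control values fell into a high pair and a low pair, and all overloaded hearts lay near the high pair. The low pair was CN 2 and CN 4, the arrays with the highest median raw intensities, 101.9 and 115.5. Both were also the lowest controls in Lpl and the highest in Acadm and Acadl. The part of signal compression in these bright probes was not tested.

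Of the acyl-CoA synthetases, which activate long-chain fatty acids, Acsl1, the main isoform of heart muscle, stood at 12.70, 12.93, 13.05 and 13.06 in SO hearts, at 12.93, 12.91, 12.96 and 13.05 in DO hearts, and at 12.87, 13.09, 13.30 and 13.32 in control hearts. All 8 overloaded hearts lay below the control mean of 13.14, but CN 1 lay below most of them. The other isoforms had group means of 6.33 in SO, 6.18 in DO and 6.32 in control hearts for Acsl3, of 6.32, 6.31 and 6.16 in the same order for Acsl4, of 8.01, 7.94 and 7.96 for Acsl5, and of 8.10, 8.01 and 8.11 for Acsl6. Differences over the 5 isoforms ran from −0.21 to 0.16 in SO against CN, from −0.18 to 0.15 in DO against CN and from −0.02 to 0.15 in SO against DO.

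Of the carnitine shuttle, Cpt1b, the muscle form of the transferase at the outer mitochondrial membrane, stood at 10.95, 11.27, 11.22 and 11.09 in SO hearts, at 10.98, 10.94, 10.98 and 11.31 in DO hearts, and at 10.98, 11.11, 11.23 and 10.80 in control hearts. Cpt2, its partner at the inner membrane, stood at 13.19, 13.27, 13.27 and 13.18 in SO hearts, at 13.12, 13.11, 13.17 and 13.32 in DO hearts, and at 13.06, 13.27, 13.36 and 13.25 in control hearts. Both genes overlapped between groups, with DO 4 the highest DO heart in each. Crat, which makes acetylcarnitine, averaged 10.86 ± 0.22 in SO, 10.73 ± 0.20 in DO and 10.77 ± 0.28 in control hearts (SD, n = 4 each). Mlycd, malonyl-CoA decarboxylase, which removes the inhibitor of Cpt1b, averaged 11.97 ± 0.11 in SO, 11.87 ± 0.18 in DO and 11.92 ± 0.11 in control hearts (SD, n = 4 each).

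Of the acyl-CoA dehydrogenases, which open each round of oxidation and divide the work by chain length, Acadm, the medium-chain enzyme, stood at 14.33, 14.44, 14.41 and 14.41 in SO hearts, at 14.33, 14.37, 14.44 and 14.54 in DO hearts, and at 14.42, 14.63, 14.46 and 14.82 in control hearts. Acadl, the long-chain enzyme, stood at 14.75, 14.71, 14.75 and 14.87 in SO hearts, at 14.74, 14.73, 14.71 and 14.74 in DO hearts, and at 14.82, 14.93, 14.78 and 14.93 in control hearts. In Acadl the 4 DO hearts lay below all 4 controls, and in Acadm 3 of 4 SO hearts did. Acadvl, the very-long-chain enzyme of the inner membrane, stood at 12.91, 12.93, 13.15 and 13.08 in SO hearts, at 12.81, 12.83, 12.87 and 12.86 in DO hearts, and at 13.05, 12.98, 13.17 and 12.86 in control hearts. The 4 DO hearts of Acadvl were tightly grouped and lay below all 4 SO hearts. Acads, the short-chain enzyme, averaged 11.27 in SO, 11.26 in DO and 11.25 in control hearts. Acadsb, which acts on branched short chains, averaged 6.27 ± 0.12 in SO, 6.03 ± 0.33 in DO and 6.19 ± 0.13 in control hearts (SD, n = 4 each), and DO 1 had its lowest value, 5.65.

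Electron transfer flavoprotein takes electrons from the acyl-CoA dehydrogenases, and Etfdh passes them on to ubiquinone. Etfdh stood at 12.67, 12.68, 12.78 and 12.89 in SO hearts, at 12.52, 12.49, 12.54 and 12.67 in DO hearts, and at 12.43, 12.57, 12.77 and 12.60 in control hearts. Of the 4 SO hearts 3 lay above all DO hearts, and SO 1 was level with DO 4. Etfa, the alpha subunit, averaged 12.22 ± 0.12 in SO, 12.12 ± 0.16 in DO and 12.18 ± 0.02 in control hearts, and Etfb, the beta subunit, averaged 6.99 ± 0.25 in SO, 6.91 ± 0.36 in DO and 6.81 ± 0.15 in control hearts (SD, n = 4 each).

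The middle steps of the spiral are hydration and the second dehydrogenation, which for long chains are joined with thiolysis in the trifunctional protein encoded by Hadha and Hadhb. These 2 genes are neighbours on rat chromosome 6 in the GRCr8 gene table. Hadha stood at 12.12, 12.26, 12.37 and 12.10 in SO hearts, at 12.04, 11.97, 12.32 and 12.46 in DO hearts, and at 12.08, 12.33, 12.51 and 12.22 in control hearts. Hadhb averaged 14.31 ± 0.09 in SO, 14.29 ± 0.14 in DO and 14.43 ± 0.16 in control hearts (SD, n = 4 each), and DO 2 was the lowest of the 12 hearts in both genes. Hadh, the dehydrogenase of medium and short chains, averaged 12.70 ± 0.16 in SO, 12.54 ± 0.14 in DO and 12.66 ± 0.10 in control hearts. Echs1 averaged 13.55, 13.55 and 13.53 in SO, DO and control hearts. Hsd17b10, a mitochondrial dehydrogenase of branched chains and steroids that is also a subunit of mitochondrial RNase P, stood at 11.41, 11.59, 11.59 and 11.65 in SO hearts, at 11.39, 11.46, 11.52 and 11.54 in DO hearts, and at 11.41, 11.38, 11.57 and 11.07 in control hearts. Its spread was widest in control hearts, through CN 4.

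Thiolases release acetyl-CoA. Acaa2, the mitochondrial form, averaged 13.30 in SO, 13.25 in DO and 13.29 in control hearts, Acaa1a, a peroxisomal form, averaged 10.80, 10.82 and 10.87 in the same order, and Acat1, which also acts on ketone bodies, averaged 12.51, 12.39 and 12.47. The auxiliary enzymes prepare unsaturated chains for oxidation. Eci1, the enoyl-CoA isomerase of the mitochondrial matrix, stood at 13.86, 14.07, 14.11 and 14.08 in SO hearts, at 13.77, 13.66, 13.72 and 14.00 in DO hearts, and at 13.85, 13.83, 14.05 and 13.92 in control hearts. Of the 4 SO hearts 3 lay above every DO heart, while SO 1 lay below DO 4. Eci2 averaged 11.41, 11.31 and 11.32, Decr1, the dienoyl-CoA reductase, 12.41, 12.27 and 12.31, and Ech1, a dienoyl-CoA isomerase, 14.37, 14.25 and 14.36 in SO, DO and control hearts. Hsd17b4, the peroxisomal bifunctional protein, averaged 12.60 ± 0.05 in SO, 12.49 ± 0.14 in DO and 12.63 ± 0.06 in control hearts (SD, n = 4 each).

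**Figure D2:**
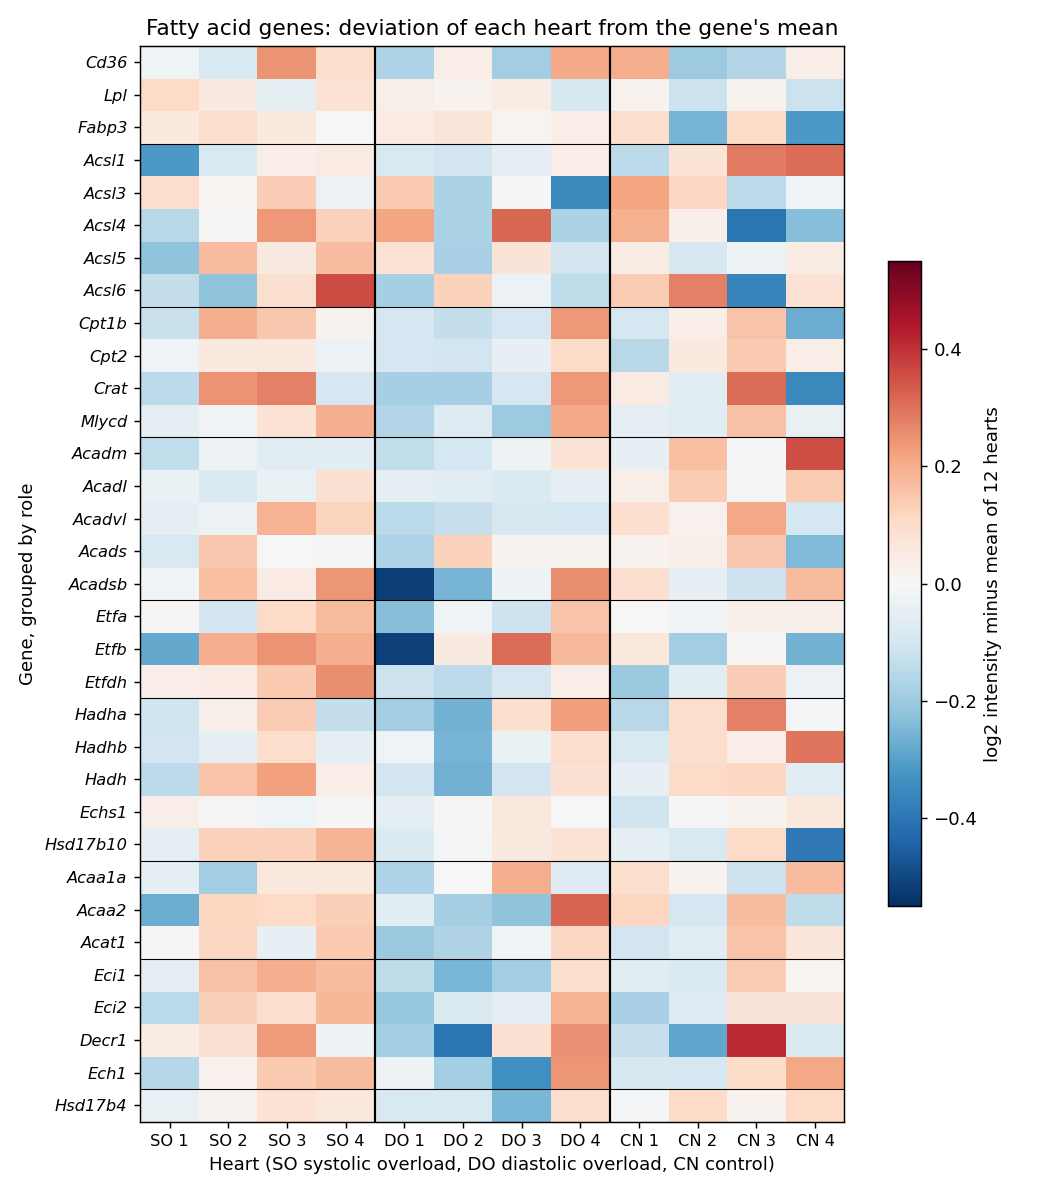
Deviation of each heart from the mean of 12 hearts (log2 intensity, colour) for 33 fatty acid genes in rows, grouped by role, with 4 systolic overload, 4 diastolic overload and 4 control hearts in columns. DO 1 and DO 2 are mostly blue and DO 4 mostly red, with 5, 8 and 24 of 33 genes above the gene's own mean.

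Systolic overload was set against control to ask what load in the contracting phase did to these genes. No fatty acid gene passed the test, and differences ran from −0.21 for Acsl1 to 0.20 for Hsd17b10. Acadm stood at 14.39 ± 0.05 in SO and 14.58 ± 0.18 in control hearts (SD, n = 4 each), a difference of −0.19 ± 0.098 SE (limma, adjusted p = 0.81, exact permutation p = 0.0571), with 4 of 4 SO hearts below the control mean. Without CN 4 the Acadm difference was −0.11. Hsd17b10 stood at 11.56 ± 0.10 in SO and 11.36 ± 0.21 in control hearts, a difference of 0.20 ± 0.11 SE (limma, adjusted p = 0.81, exact permutation p = 0.0857), or 0.11 without CN 4 and −0.01 with median scaling. In 0 of 33 genes were the SO and control hearts without overlap, against 3.5% of all tested probes. The differences of Acsl1 (−0.21), Etfdh (0.16, but −0.04 with median scaling) and Fabp3 (0.14) were the next smallest in p, at limma adjusted p values of 0.81, 0.82 and 0.89. Acsl1 stood at −0.13 without SO 1 and −0.35 with median scaling, and Fabp3 at 0.07 without CN 4 and 0.09 without CN 2. The interval was −0.17 to 0.36 for Cd36, −0.07 to 0.27 for Lpl, −0.15 to 0.36 for Cpt1b, −0.20 to 0.18 for Cpt2 and −0.35 to 0.21 for Hadha, so that a change of uptake, transport or trifunctional protein transcripts beyond these limits was not seen. A higher mean in SO hearts was found for 24 of 33 genes, against 51.5% of all tested probes, and the median difference was 0.04 (0.00 over all probes). That count was 2 of 33 with median scaling, under which the median of all tested probes was itself −0.17 and that of the fatty acid genes −0.13. The median was 0.08 without SO 1 and 0.02 without SO 4.

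Diastolic overload was set against the same 4 controls to ask the corresponding question of the filling phase, so that the results of both comparisons share those hearts. No fatty acid gene passed, and differences ran from −0.18 for Acsl1 to 0.15 for Acsl4. Acadvl had the smallest p, at 12.84 ± 0.03 in DO and 13.01 ± 0.13 in control hearts (SD, n = 4 each), a difference of −0.17 ± 0.089 SE (limma, adjusted p = 0.92, exact permutation p = 0.0857), or −0.39 with median scaling. Acadl differed by −0.14 ± 0.074 SE (limma, adjusted p = 0.92). Its groups did not overlap, as in 1 of 33 fatty acid genes and 2.78% of all tested probes, and the two-sided exact permutation p of 0.0286 is the smallest that 4 hearts against 4 can give. Acadm (−0.16), Hsd17b4 (−0.13) and Acsl1 (−0.18) followed, with limma adjusted p values of 0.93 each. The Acadm difference was −0.08 without CN 4, that of Hsd17b4 −0.08 without DO 3, and that of Acsl1 −0.27 without CN 1. With median scaling Hsd17b4 and Acsl1 both stood at −0.38. The interval was −0.26 to 0.27 for Cd36, −0.12 to 0.22 for Lpl, −0.09 to 0.36 for Fabp3, −0.23 to 0.28 for Cpt1b, −0.24 to 0.13 for Cpt2 and −0.36 to 0.19 for Hadha. A lower mean in DO hearts was found for 24 of 33 genes, against 50.8% of all tested probes, with a median difference of −0.05 (0.00 over all probes). The median was −0.13 without DO 4 and −0.03 without CN 3. With median scaling 31 of 33 genes had a lower mean, with a median of −0.27 beside −0.18 over all tested probes.

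Systolic was set against diastolic overload to ask directly whether the phase of loading mattered. Control hearts enter neither mean, but they share in the estimate of the spread behind each SE and p. No fatty acid gene passed, and differences ran from −0.03 for Acadm to 0.24 for Eci1 and Acadsb. Eci1 was the 1 gene with an unadjusted p under 0.05, at 14.03 ± 0.11 in SO and 13.79 ± 0.15 in DO hearts (SD, n = 4 each), a difference of 0.24 ± 0.098 SE with a 95% interval of 0.03 to 0.45 (limma, unadjusted p = 0.029, adjusted p = 0.75, exact permutation p = 0.0571). Etfdh differed by 0.20 ± 0.092 SE (limma, adjusted p = 0.79, exact permutation p = 0.0571), with 4 of 4 SO hearts above the DO mean. Acadvl differed by 0.17 ± 0.089 SE (limma, adjusted p = 0.86), and was the 1 of 33 fatty acid genes whose groups did not overlap, against 3.13% of all tested probes, at the smallest possible exact permutation p of 0.0286. Acadsb (0.24) and Hadh (0.17) came next, with limma adjusted p values of 0.88 and 0.91. The Acadsb difference was 0.11 without DO 1, 0.37 without DO 4 and 0.12 with the deposited normalized table, and that of Hadh was 0.11 without SO 3 and 0.11 without DO 2. For the fixed uptake and transport genes the interval was −0.17 to 0.36 for Cd36, −0.12 to 0.22 for Lpl, −0.21 to 0.23 for Fabp3, −0.18 to 0.34 for Cpt1b and −0.14 to 0.23 for Cpt2. For Acsl1, Acadm and Hadha it was −0.27 to 0.22, −0.24 to 0.19 and −0.26 to 0.29.

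A higher mean in SO than in DO hearts was found for 30 of 33 fatty acid genes, against 52.2% of all tested probes, and for 32 of 33 with median scaling. The median difference was 0.08, or about 0.01 over all probes. The genes were not independent of each other, since hearts were high or low in many of them together, and the median was 0.05 without DO 1 and 0.15 without DO 4. The count was 26 of 33 without DO 1 and 31 without DO 4.

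**Figure D3:**
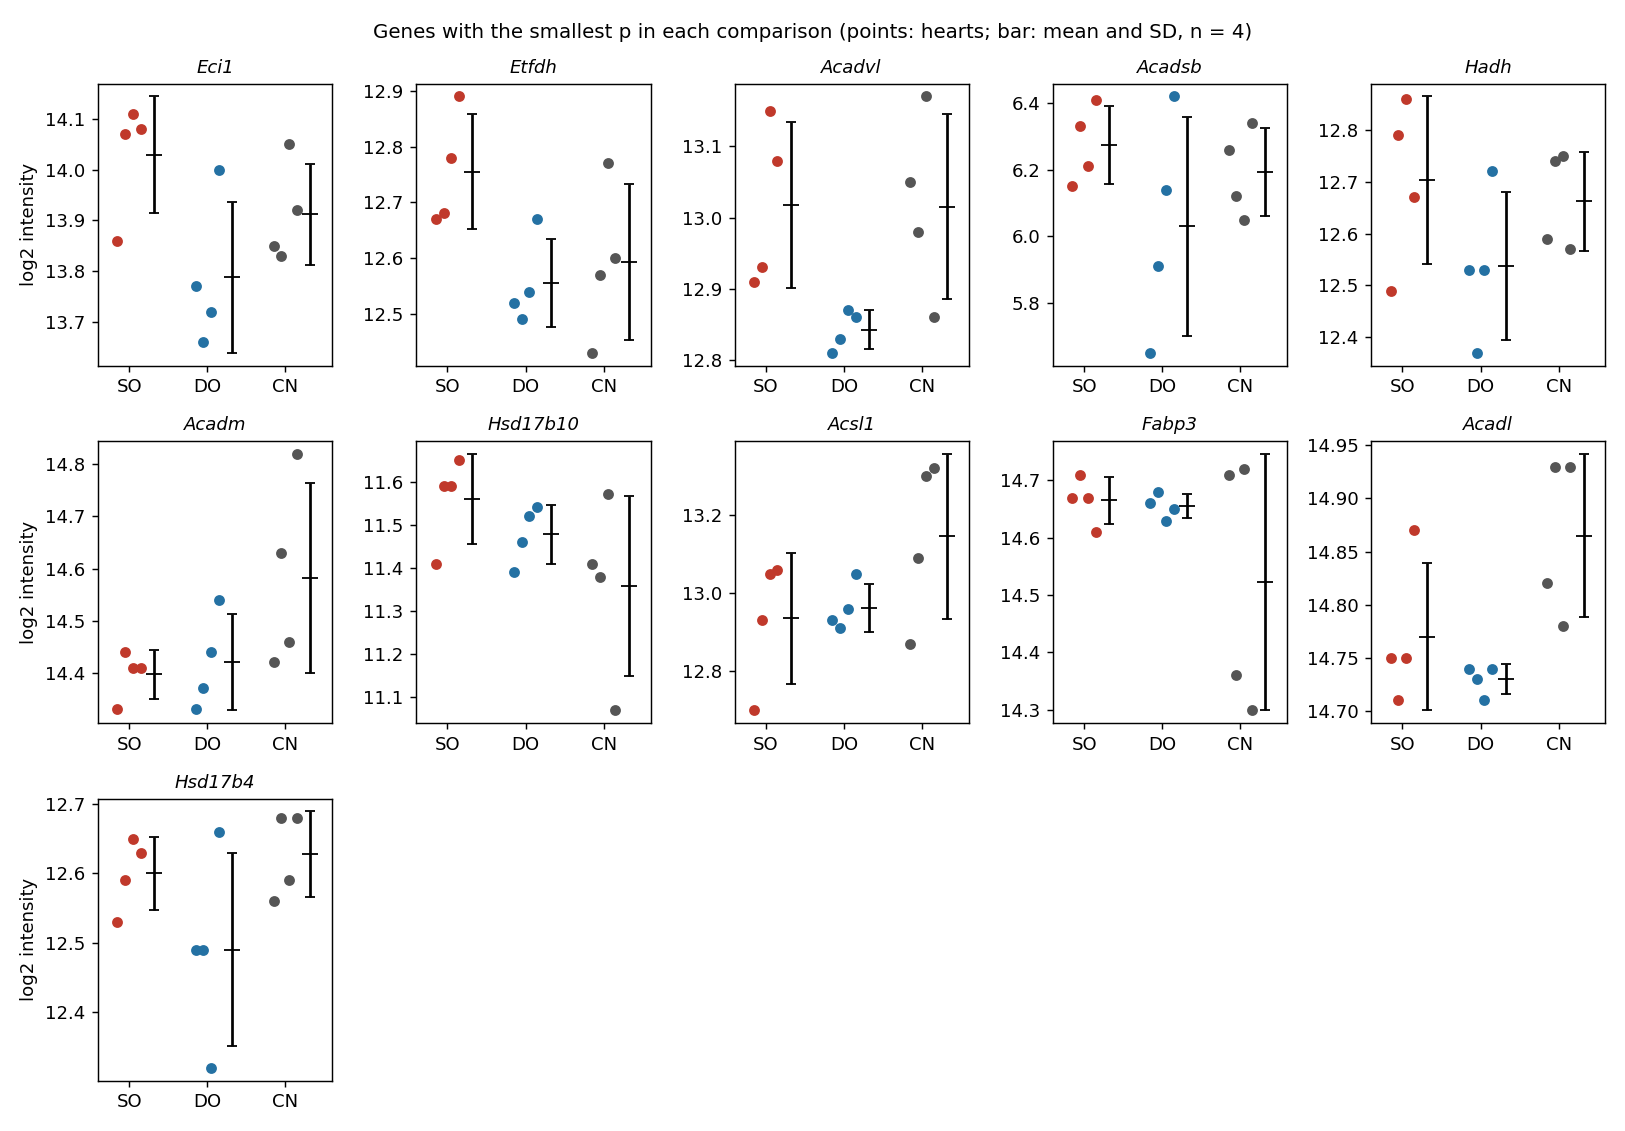
Normalized log2 intensity of the genes with the smallest p in the 3 comparisons (points: single hearts; bars: mean and SD, n = 4), each on its own axis, in systolic overload (SO), diastolic overload (DO) and control (CN) hearts. Acadvl values of DO hearts, 12.81 to 12.87, lie below those of SO hearts, 12.91 to 13.15, and Acadl values of DO hearts, 14.71 to 14.74, lie below those of control hearts, 14.78 to 14.93.

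Promoter windows of the 5 genes with the smallest p in SO against DO were read for the core site AGGTCA, which nuclear receptors of the PPAR and RXR families bind as a direct repeat in many fatty acid genes. RefSeq windows of 300 bases (250 before to 50 after the start, GRCr8) were at hand for 28 of the 34 genes. The core site was found on either strand in 6 of 28 windows (21.4%), against 16.2% of 33469 windows of all genes. The full direct repeat of AGGTCA with 1 base between its copies, which contains the core site, was in 0 of 28, against 0.0538% of all windows. Only exact repeats were counted, and a string this rare says little by its absence from 28 windows. Imperfect repeats inside the windows were not searched for. A match is a description of letters and not a binding site, and no match says nothing about sites outside the window. Of the 5 genes, Eci1 (chr10:13961000-13961299, plus strand) held 1 core site and Acadvl (chr10:55236656-55236955, minus strand) held 2, while Etfdh, Acadsb and Hadh held 0. Both windows with a match are shown 5′ to 3′ on the gene's strand, with the core site in capitals (TGACCT where it lies on the opposite strand).
Eci1: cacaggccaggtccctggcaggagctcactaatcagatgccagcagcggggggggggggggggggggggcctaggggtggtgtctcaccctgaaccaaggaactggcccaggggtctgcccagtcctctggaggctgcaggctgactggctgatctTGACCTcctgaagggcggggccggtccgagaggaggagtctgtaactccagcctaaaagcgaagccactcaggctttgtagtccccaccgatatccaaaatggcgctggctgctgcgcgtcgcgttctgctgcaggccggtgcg
Acadvl: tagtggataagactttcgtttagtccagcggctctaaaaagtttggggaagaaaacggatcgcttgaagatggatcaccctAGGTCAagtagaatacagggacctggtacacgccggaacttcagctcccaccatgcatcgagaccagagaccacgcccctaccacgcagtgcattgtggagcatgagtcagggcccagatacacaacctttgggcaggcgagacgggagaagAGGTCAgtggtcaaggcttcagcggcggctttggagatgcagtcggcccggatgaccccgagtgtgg

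The 33 genes also varied from heart to heart within groups. In SO 1, 8 of 33 genes were above their own 12-heart mean, against 23, 28 and 24 in SO 2, SO 3 and SO 4, and SO 1 was the lowest SO heart in 20 genes. In DO 4, 24 of 33 genes were above their mean, against 5, 8 and 12 in DO 1, DO 2 and DO 3, and DO 4 was the highest DO heart in 21 genes. Among controls, the count was 24 in CN 3 and 15, 15 and 17 in CN 1, CN 2 and CN 4. The mean deviation over the 33 genes was −0.08, 0.05, 0.10 and 0.09 in SO 1 to SO 4, −0.12, −0.11, −0.03 and 0.08 in DO 1 to DO 4, and −0.01, −0.02, 0.06 and −0.02 in CN 1 to CN 4. The SO, DO and control hearts overlapped in this measure.

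**Figure D4:**
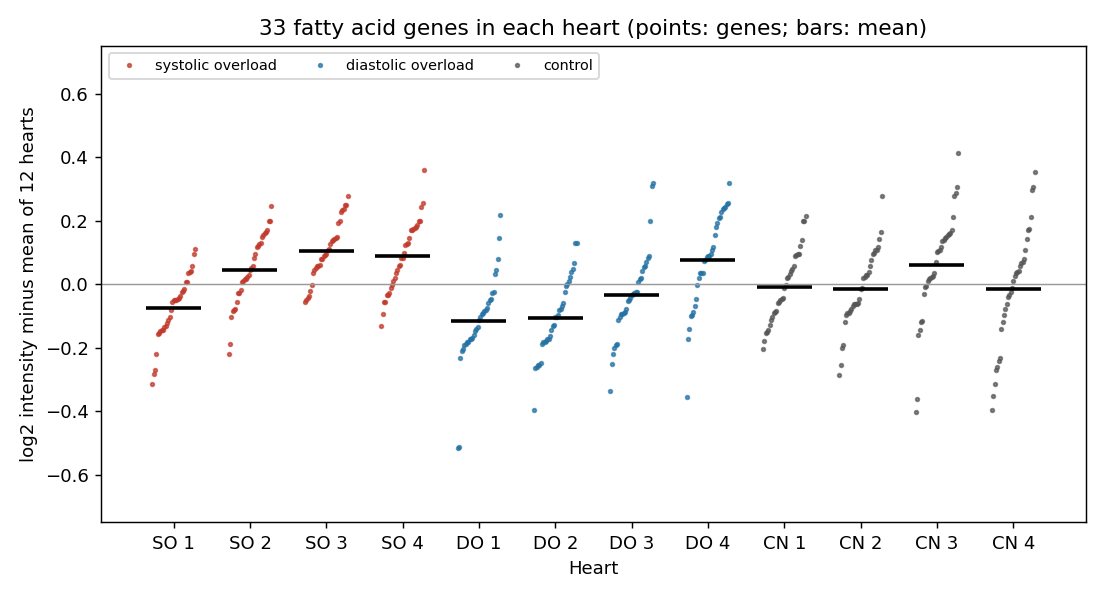
Deviation of 33 fatty acid genes from their own mean over 12 hearts (log2 intensity; points: genes in rising order; bars: mean of the 33) in each systolic overload (SO), diastolic overload (DO) and control (CN) heart. Bars of the SO hearts run from −0.08 to 0.10, of the DO hearts from −0.12 to 0.08 and of the control hearts from −0.02 to 0.06.

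The leading principal component of the values centred within groups held 40.6% of the variance of the 33 genes, against 26.7% for all tested probes. These shares are not like for like, since all tested probes number 10234 and include dim ones. Genes were not scaled, so those of wide spread weigh more, such as Etfb, Decr1 and Crat (SD within groups 0.269, 0.249 and 0.235). Loadings on the component of the 33 genes were highest for Decr1 (0.35), Crat (0.33), Acaa2 (0.29), Etfb (0.29) and Hadha (0.26). They are auxiliary, carnitine, thiolase, electron transfer and trifunctional genes. The synthetases Acsl3 (−0.20), Acsl6 (−0.14) and Acsl4 (−0.13) had loadings of the opposite sign. Scores were highest in DO 4 (1.06) and CN 3 (0.80) and lowest in SO 1 (−0.65) and DO 1 (−0.58). CN 3 was the highest of the 12 hearts for Decr1, at 12.74, and the lowest for Acsl4, at 5.86.

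Markers of other cells were set beside these values. Over 7 tested endothelial markers (10 listed), the mean deviation was −0.19 to 0.03 in SO hearts, −0.25 to 0.36 in DO hearts and −0.22 to 0.50 in control hearts, with DO 4 at 0.36 and the other DO hearts at −0.12 or lower. Over 3 tested erythroid markers (5 listed), it was −0.11 to 0.26 in SO hearts, −0.98 to 0.27 in DO hearts and −0.65 to 1.18 in control hearts, with DO 4 at 0.27 and DO 1, DO 2 and DO 3 at −0.51, −0.58 and −0.98. DO 4 thus stood apart from the other DO hearts in these 2 list means as in the fatty acid genes, while CN 3, also high in fatty acid genes, was at 0.15 and −0.65. By single marker, DO 4 was the highest DO heart for Cldn5, Tie1, Egfl7, Tek, Hba-a1 and Hbb. It was not the highest for Emcn, Vwf, Plvap or Slc4a1. Over 8 fibroblast markers it was −0.25 to 0.12 in SO, −0.21 to 0.71 in DO and −0.33 to 0.30 in control hearts, with DO 1 at 0.71. Over 6 tested macrophage markers (8 listed), DO 1 was the highest heart as well, at 0.53, within −0.19 to 0.26 in SO, −0.12 to 0.53 in DO and −0.33 to −0.04 in control hearts. Over 9 tested cardiomyocyte markers (10 listed), the range was 0.04 to 0.07 in SO, −0.05 to 0.11 in DO and −0.17 to 0.01 in control hearts. The SO hearts thus lay above the controls in this list mean. Of the brightest of these markers, CN 4 was the lowest heart for Mb (14.12), Tnni3 (14.00) and Myl3 (14.35), but not for Tnnt2, Ckm or Myh6. The part of signal compression in these markers was not tested. Over 4 tested lymphocyte markers (6 listed), it was −0.45 to 0.15 in SO, −0.01 to 0.51 in DO and −0.32 to 0.03 in control hearts. Of the adipocyte markers, 3 of 7 were tested (−0.24 to 0.21 in SO, 0.01 to 0.09 in DO and −0.21 to 0.21 in control hearts), and the defining ones were at or near background, with Adipoq detected on 1 array and Lep and Retn on 0. Of the smooth muscle and pericyte markers, 1 of 6, Tagln, was tested. The part of other cell types in the heart-to-heart pattern was not tested.

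Of 49 other genes of fatty acid use, regulators and side routes among them, 41 had a probe and 38 were tested. With limma, 0 of 38 passed in either direction in each comparison. In SO against CN 23 of 38 had a higher mean (median 0.06, or −0.9 to 0.5 from lowest to highest) and 1 had an unadjusted p under 0.05. In DO against CN 14 of 38 had a higher mean (median −0.06, or −0.71 to 0.32) and 4 had such a p. In SO against DO 30 of 38 had a higher mean (median 0.10, or −0.25 to 0.93) and 2 had such a p. These values stood beside 51.5%, 49.2% and 52.2% of all tested probes with a higher mean. Of all tested probes, 5.79%, 5.49% and 6.32% had an unadjusted limma p under 0.05.

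Ppara, the nuclear receptor that drives many of the oxidation genes, stood at 5.65, 5.96, 5.48 and 5.44 in SO hearts, at 5.08, 5.66, 5.46 and 5.47 in DO hearts, and at 6.09, 5.84, 6.12 and 5.68 in control hearts. All 4 DO hearts lay below all controls, with a difference of −0.52 ± 0.15 SE (95% interval −0.84 to −0.19; limma, unadjusted p = 0.0047, adjusted p = 0.75), and the SO difference from control was −0.30 ± 0.15 SE (limma, adjusted p = 0.81). Its probe was above background on 11 of 12 arrays, so its values are close to background and depend on how background is removed. With the deposited normalized table the differences were −0.24 in DO and −0.14 in SO hearts against control, and with no background correction −0.23 and −0.14. Cpt1a, the liver form of the outer membrane carnitine transferase, stood at 8.10, 8.36, 7.46 and 7.87 in SO hearts, at 7.51, 7.33, 7.77 and 7.44 in DO hearts, and at 8.21, 8.06, 7.85 and 8.00 in control hearts. Its difference was −0.52 ± 0.17 SE in DO against CN, with no overlap (limma, unadjusted p = 0.0084, adjusted p = 0.78), and 0.44 ± 0.17 SE in SO against DO (limma, adjusted p = 0.74). Cpt1b, the muscle form, differed by 0.02 and 0.08 in the same comparisons. The muscle and liver forms were not tested against each other. Dgat1, which makes triglycerides, stood at 9.86, 9.97, 10.23 and 10.29 in SO hearts, at 10.03, 10.05, 9.84 and 9.84 in DO hearts, and at 10.27, 10.12, 10.39 and 10.17 in control hearts, a DO difference of −0.29 ± 0.11 SE without overlap (limma, adjusted p = 0.88), or −0.53 with median scaling. These 3 of 38 genes were the ones without overlap in DO against CN, where 2.78% of all tested probes had none.

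Tfam, the mitochondrial transcription factor, stood at 10.90, 11.03, 11.18 and 11.33 in SO hearts and at 10.28, 10.71, 10.60 and 10.84 in control hearts. In DO hearts Tfam stood at 10.46, 11.27, 11.08 and 10.73. All 4 SO hearts lay above all controls, a difference of 0.50 ± 0.17 SE (limma, unadjusted p = 0.013, adjusted p = 0.81) that was 0.30 with median scaling, and 1 of 38 genes and 3.5% of all tested probes had no overlap there. Abcd3, a peroxisomal transporter, differed by 0.29 in SO against CN (limma, adjusted p = 0.81), with 0.17 without CN 2 and 0.09 with median scaling. The means of DO hearts were above control as well, by 0.28 for Tfam and 0.21 for Abcd3. The SO against DO differences were 0.22 and 0.08. In SO against DO, Pdk4, the kinase that restrains pyruvate dehydrogenase, averaged 10.36 ± 0.36 in SO and 9.80 ± 0.43 in DO hearts (SD, n = 4 each), a difference of 0.56 ± 0.24 SE (limma, adjusted p = 0.76). Ppargc1b, a coactivator of mitochondrial genes, averaged 6.75 ± 0.30 in SO, 6.33 ± 0.54 in DO and 6.93 ± 0.15 in control hearts. Its SO against DO difference was 0.42 ± 0.23 SE (limma, adjusted p = 0.86). That difference was 0.24 without DO 2, 0.66 without DO 4 and 0.23 with the deposited normalized table. Against control, Ppargc1b was lower in DO hearts, by −0.59 ± 0.23 SE (limma, unadjusted p = 0.022, adjusted p = 0.88). The SO difference from control was −0.18 ± 0.23 SE (limma, adjusted p = 0.95), so its SO mean was not above control. DO 4 was the highest DO heart in both Pdk4 and Ppargc1b.

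**Figure D5:**
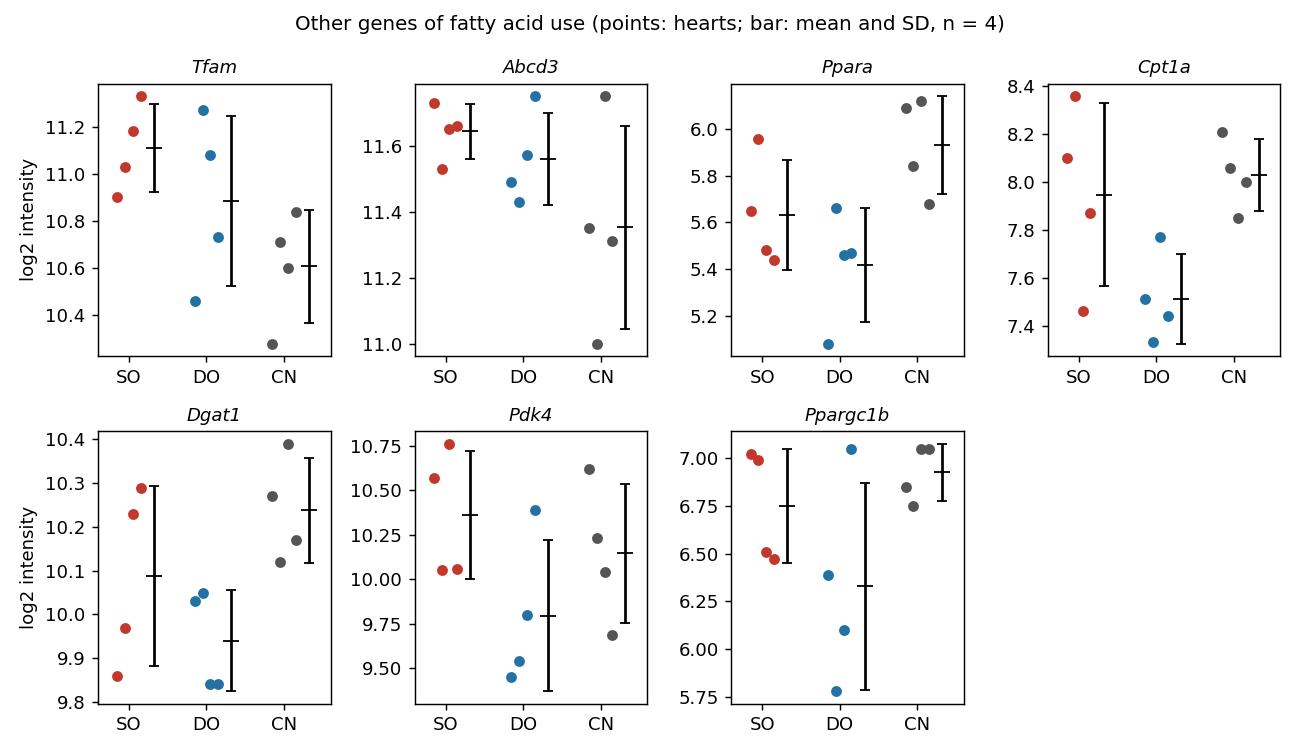
Normalized log2 intensity of 7 other genes of fatty acid use, the 3 with the smallest p in each comparison (points: single hearts; bars: mean and SD, n = 4), in systolic overload (SO), diastolic overload (DO) and control (CN) hearts. For Ppara, Cpt1a and Dgat1 the DO hearts lie below all control hearts, and for Tfam the SO hearts lie above them.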

How the data were processed

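Trizol-extracted, DNase-treated RNA was copied into biotinylated cRNA, per the labels' protocols. The deposited table gives a raw intensity per probe and array, not normalized per the file headers, and a detection p-value against the array's background. Quantile-normalized intensity values of these arrays were deposited as another table, a reading made from the values themselves. For the scanner software, nothing is stated in the labels or headers.

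Genes were named from the platform annotation (22523 probes, 13793 with 1 symbol, 0 with several, 8730 with none), and all member symbols matched the GRCr8 gene table by Entrez identifier. Promoter sequences are from RefSeq.

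Intensities were background-corrected, quantile normalized and log2-transformed with neqc (limma 3.58.1, R 4.3.3, offset 16). Testing kept the 10234 probes whose detection p fell below 0.05 on 4 or more of the 12 arrays. Group means were estimated in 1 limma fit over the 12 arrays (lmFit, eBayes), with Benjamini-Hochberg adjustment over all tested probes within each contrast. Exact permutation tests are two-sided over 70 splits. The number of arrays limits precision. The median standard error was 0.10 for members and 0.13 for all probes.

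The members, gene lists, tests and alternatives were chosen with earlier results of these data known. Named in full were 8 fixed members, the 5 members with the smallest p per contrast, and the 3 other genes with the smallest p. A marker list is summarised by its mean deviation from each gene's 12-heart mean. Alternatives changed the normalization, background correction, filter, samples in the fit and replicate block, and left out each array. In 20 simulated SO against CN comparisons over 10234 probes, 3.6% of changes of log2 0.25 were found, 41.4% of 0.5, 91% of 1 and 97.5% of 1.5. In these, 96.2% of member intervals held the true value. Each simulation changed 200 probes, and a mean of 7.1 unchanged probes were called. The changed probes were drawn at random from all tested ones, in equal numbers of each size. The shares found depend on how many large changes are present. They therefore do not carry over to the real SO against CN comparison, where the smallest limma adjusted p was 0.52. Nor were they computed for the fatty acid genes alone. Noise was drawn independently for each probe on the normalized scale. Shifts shared by many genes of a heart and the choice of normalization were therefore not covered. No 2 arrays held identical values, in 66 pairs.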

Additional observations from a re-analysis of the deposited data

Results flagged for a closer look

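In 6 of 99 groups of 4 hearts (33 genes in 3 groups), 1 heart stood apart from the other 3 by Dixon's criterion, where chance gives about 5. SO 1 was the low heart for Etfb (6.62), Acaa2 (13.01) and Eci1 (13.86). DO 4 was the high heart for Cpt1b (11.31) and the low heart for Lpl (14.79). CN 3 was the high heart for Mlycd (12.08). SO 1, DO 4 and CN 3 were also the hearts whose 33 fatty acid genes lay lowest or highest as a whole within their groups, in 20, 21 and 17 genes. No fatty acid gene had all SO hearts on one side of the control mean and all DO hearts on the other.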

How the results depend on the processing

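Over 9 other settings and 12 fits that each left out 1 heart, 0 fatty acid genes and 0 of all tested probes passed in any comparison. Of the 9, averaging the tested probes of a gene repeats the main fit, since each fatty acid gene had 1 tested probe. With the deposited normalized table and with other background corrections, the direction of each named gene was kept. Fits with only probes detected on 12 arrays (which leaves out Ppara), without a filter, or with 2 groups used the same normalized values. They could alter p-values but not a difference, so they do not bear on direction. Median scaling moved the median of all tested probes to −0.17 in SO against CN and −0.18 in DO against CN, with 18.6% and 17.5% of all probes higher, against 51.5% and 49.2% after quantile normalization. Under it, 2 of 33 fatty acid genes had a higher mean in each of these comparisons, with medians of −0.13 and −0.27. Signs turned for Cd36 (−0.06), Cpt1b (−0.12), Etfdh (−0.04) and Hsd17b10 (−0.01) in SO against CN, for Cd36 (−0.21) and Cpt1b (−0.22) in DO against CN, and for Acsl1 (0.03) and Acadm (0.05) in SO against DO. The cause was not tested.

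With 1 heart left out, the median of the fatty acid genes ran from 0.02 to 0.08 in SO against CN, −0.13 to −0.03 in DO against CN and 0.05 to 0.15 in SO against DO. At least 31, 32 and 31 of 33 intervals stayed within 1.5-fold in these comparisons. Signs turned in some of these fits for small differences, namely Cpt2 (−0.07 to 0.03) and Hadha (−0.14 to 0.01) in SO against CN, Cd36 (−0.08 to 0.08) and Cpt1b (−0.06 to 0.09) in DO against CN, and Fabp3 (−0.01 to 0.03), Acsl1 (−0.07 to 0.05), Acadm (−0.06 to 0.01) and Hadha (−0.06 to 0.10) in SO against DO.

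Same-numbered hearts did not pair by the data (correlations of −0.27 to 0.33 over 12 pairs, 2 above 0.1). With the replicate number as a block, 0 of 33 genes and 0 of all probes passed. The medians of 0.04, −0.05 and 0.08 could not move, since each replicate number occurs once in each group. Signal over background limits Ppara, and it also limits the dim probes of Etfb, Acadsb, Acsl3 and Acsl4. Raw intensities ran from 149 to 244, 121 to 211, 115 to 202 and 120 to 182 for these 4, beside array medians of 86.3 to 115.5. The bright probes of Lpl, Acadl and Fabp3 may understate differences, or distort them between arrays of unlike brightness. In CN 4 the raw Acsl1 value, 15862, was the highest of the 12, while raw Fabp3, 27061, was below the 28297 of CN 1. The part of compression in this was not tested. The alternatives for other genes of fatty acid use and for the interval counts were added after seeing the data.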
